A study of Mus musculus with 6 samples.

Results

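Fat cells are made from stromal progenitors under the control of a small set of transcription factors, and the values of 10 of them were examined in inguinal adipose tissue (iAT), the subcutaneous white fat depot of the groin. The genes were *Pparg*, *Cebpa*, *Cebpb*, *Cebpd*, *Rxra*, *Ebf1*, *Zfp423*, *Klf4*, *Klf5* and *Klf15*. They were chosen by name for their known part in making white adipocytes, though with earlier results of these data known. All 10 were among the 19831 genes listed, and all 10 were among the 15309 whose mean reached 10 normalized counts. RNA was sequenced from iAT of wild-type mice (3 libraries) and of mice lacking *Npffr1*, the receptor 1 for neuropeptide FF (Npffr1-KO, 3 libraries), at postnatal day 6. No treatment was listed for either group, and all animals came from specific pathogen-free housing. The paper's methods give its young mice as male C57BL/6 without naming these samples, and the deleted allele, and the tissue or cells in which it was deleted, were not stated in the labels or the paper. Each gene had 1 pooled value per genotype, so the spread between animals is not contained in these values, and a difference between the genotypes had no replicate check except where the reads of each library could be recovered.

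In the textbook order of adipogenesis, *Zfp423* and *Ebf1* mark committed preadipocytes, and a hormonal stimulus then induces *Klf4*, *Cebpb* and *Cebpd* within hours. C/EBPβ, C/EBPδ and KLF5 switch on *Pparg* and *Cebpa*, which maintain each other and turn on the genes of lipid storage. PPARγ binds DNA as a heterodimer with RXRα, the product of *Rxra*, and KLF15 is a later factor of glucose and lipid handling in the maturing cell. Many of these genes are also used outside the adipocyte lineage, KLF4 and KLF5 in epithelia and C/EBPβ and C/EBPδ in inflamed or stimulated cells.

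The promoters show how differently the core genes are built, and those of *Cebpa*, *Cebpb* and *Pparg* are printed because the latter pair differed most in value among the well expressed factors while *Cebpa* hardly differed. Each is the 250 bases before an annotated transcription start, from RefSeq (GRCm38.p6), on the plus strand, at chr7:35119043-35119292 for *Cebpa*, chr2:167688665-167688914 for *Cebpb*, chr6:115360894-115361143 for the most upstream listed start of *Pparg* and chr6:115421816-115422065 for its most downstream one. Capitals mark matches, on either strand, to the letters TTGCNNAA (recognised by C/EBP proteins) or CACCC (recognised by KLF proteins).
Cebpa: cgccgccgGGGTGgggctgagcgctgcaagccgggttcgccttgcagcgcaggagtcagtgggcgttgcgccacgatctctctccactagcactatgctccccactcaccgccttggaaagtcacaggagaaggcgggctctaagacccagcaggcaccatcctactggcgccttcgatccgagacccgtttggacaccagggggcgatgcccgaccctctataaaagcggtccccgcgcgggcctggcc
Cebpb: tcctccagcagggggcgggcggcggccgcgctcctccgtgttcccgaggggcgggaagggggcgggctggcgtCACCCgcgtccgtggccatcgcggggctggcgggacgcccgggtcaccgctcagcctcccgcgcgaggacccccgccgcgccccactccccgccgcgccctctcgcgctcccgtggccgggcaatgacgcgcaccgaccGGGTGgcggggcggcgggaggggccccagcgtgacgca
Pparg, upstream start: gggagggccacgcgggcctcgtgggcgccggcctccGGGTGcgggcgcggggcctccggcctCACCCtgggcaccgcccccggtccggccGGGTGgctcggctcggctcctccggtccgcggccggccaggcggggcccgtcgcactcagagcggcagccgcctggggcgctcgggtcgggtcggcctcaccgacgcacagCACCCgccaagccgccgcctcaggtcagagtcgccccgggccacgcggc
Pparg, downstream start: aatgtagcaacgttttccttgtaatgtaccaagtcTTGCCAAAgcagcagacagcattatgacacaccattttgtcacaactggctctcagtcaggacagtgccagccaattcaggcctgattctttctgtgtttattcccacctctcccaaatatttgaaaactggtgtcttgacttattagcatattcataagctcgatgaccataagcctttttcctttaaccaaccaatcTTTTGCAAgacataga

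The upstream *Pparg* promoter was 82.4% G and C and held 4 KLF matches with no C/EBP match. The downstream one was 40.8% G and C and held 2 C/EBP matches, starting 215 and 16 bases before the start site, with no KLF match. *Cebpb* held 2 KLF matches and *Cebpa* 1, and neither held the C/EBP letters. Over all 32536 promoters of the same length, 9.57% held the C/EBP letters and 52.1% the KLF letters, so a single KLF match is common. RefSeq entries were found for 8 of the 10 genes, with 13 starts in all, and not for *Cebpd* and *Klf5*. Among those 8 genes, *Zfp423* alone beside *Pparg* held the C/EBP letters, with 1 match. The cAMP response element TGACGTCA and the AP-1 letters TGANTCA were held by 1.56% and 6.73% of all promoters, and with both strands searched they were not found in these 13 windows. The pooled values do not separate the starts of *Pparg*, so they cannot be read for either promoter alone.

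The libraries were close in depth, with recovered size factors of 0.916 to 1.04. Reads of *Npffr1* itself were few, 1, 0 and 5 in the wild-type libraries and 0 in each Npffr1-KO library, so at this depth the deletion could hardly be checked. White adipocyte markers were abundant in both genotypes, with *Fabp4* (a fatty acid carrier) at 156285 normalized counts in wild-type against 173188 in Npffr1-KO. One Npffr1-KO library stood apart in muscle RNA: *Ckm*, the muscle creatine kinase, had 215 reads in it against 1 and 6 in the other Npffr1-KO libraries and 2, 3 and 2 in the wild-type libraries. Over all 8 muscle genes examined, the summed pooled values were 510 in wild-type against 924 in Npffr1-KO. The pooled columns do not allow that library to be left out, except for *Klf5*, where this is done below. *Ckm* also shows how the pooled ratio is drawn towards 0 when libraries disagree, since its log2 ratio was 0.75 from the pooled values and 4.97 from the reads. Its pooled wild-type value was 27.5 normalized counts, although the wild-type libraries held 2, 3 and 2 reads. A pooled value can therefore differ from the level of its own libraries, and the wild-type muscle sum of 510 can be too high.

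*Cebpa* stood far above the other 9 factors in wild-type iAT. Its pooled value was 12682 normalized counts, higher than 99.0% of listed genes, and per kilobase of listed gene length it reached 4809. *Pparg*, the nuclear receptor that the other factors converge on, followed with 3864 normalized counts and 2172 per kilobase. *Cebpa* thus had 2.21 times the level of *Pparg* per kilobase in wild-type and 1.67 times in Npffr1-KO.

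A middle group of 4 factors lay close together per kilobase in wild-type iAT. *Rxra* was at 903, *Ebf1* at 881, *Klf4* at 870 and *Cebpb* at 810 normalized counts per kilobase. The spread of these values between animals is unknown, so the order of these 4 neighbours is not established. In Npffr1-KO the order within the group was different, with *Cebpb* at 1162, *Klf4* at 996, *Rxra* at 839 and *Ebf1* at 755.

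The lower group held *Cebpd* at 346, *Zfp423* at 223 and *Klf15* at 183 normalized counts per kilobase in wild-type. *Klf5* was by far the lowest, with 25.0 per kilobase from a pooled value of 43.2 normalized counts, and it exceeded 32.2% of listed genes. From *Cebpa* to *Klf5* the wild-type levels spanned 192-fold per kilobase. In Npffr1-KO *Klf15* (223) stood just above *Zfp423* (213), the reverse of their order in wild-type.

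**Figure D1:**
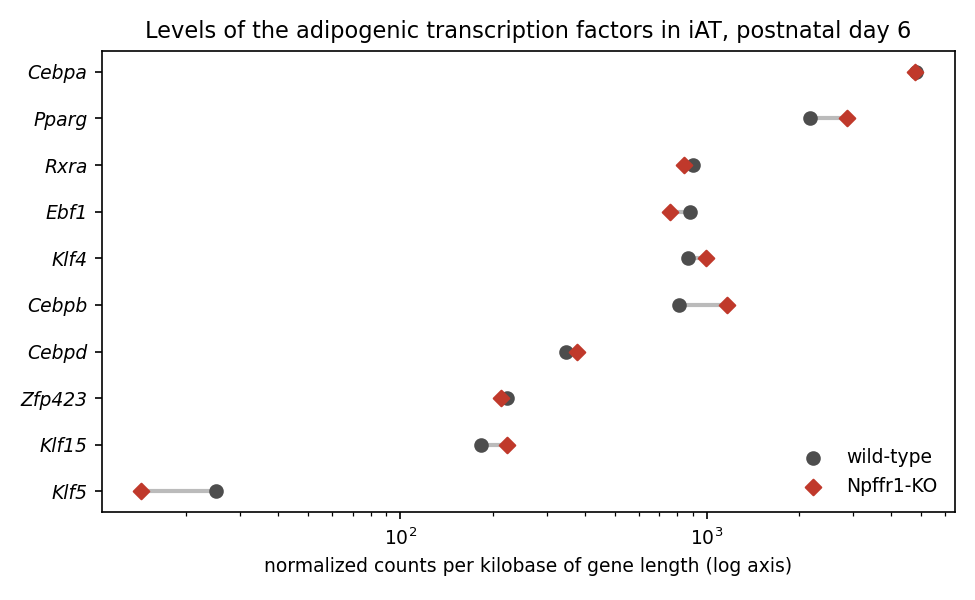
Levels of the 10 factors in wild-type (circles) and Npffr1-KO (diamonds) iAT, in normalized counts per kilobase of listed gene length on a log axis, 1 pooled value per genotype. *Cebpa* lies at 4809 and 4789, *Klf5* lies lowest at 25.0 and 14.2, and the symbols are clearly apart for *Pparg*, *Cebpb* and *Klf5*.

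Between the genotypes, a gene was counted as higher or lower in Npffr1-KO when its log2 ratio was at least 0.32 in size, as a description and not a test. By this limit 2 of the 10 factors were higher, *Cebpb* and *Pparg*, where 12.0% of the 15309 genes were. *Klf5* was the 1 factor counted as lower, where 11.6% of those genes were, and the other 7 lay within the limit. The median log2 ratio of the 10 was 0.06, against 0.01 over the 15309 genes, with 5 factors above and 5 below 0. With 10 genes, these counts lie near the background shares, and nothing particular to the set is read from them. The same shares, 12.0% higher and 11.6% lower, stand beside every count of a gene list below.

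*Cebpb*, the early factor that relays the adipogenic stimulus, had 1229 normalized counts in wild-type against 1764 in Npffr1-KO. That is a ratio of 1.43 (log2 0.52), with a 95% interval of 0.46 to 0.58 that covers counting error only, and 96.1% of the 15309 genes had a lower ratio. Its close relative *Cebpd*, which acts at the same early step, had 781 and 851 normalized counts (log2 0.12, counting interval 0.04 to 0.20). The level of *Cebpb* relative to *Cebpd* per kilobase was 2.34 in wild-type and 3.09 in Npffr1-KO. Whether either difference exceeds the spread between animals cannot be read from pooled values.

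*Klf4*, which is induced early and binds the *Cebpb* promoter, had 2658 normalized counts in wild-type against 3045 in Npffr1-KO (log2 0.20, counting interval 0.15 to 0.24). *Cebpb* and *Klf4* can both respond within minutes to stress or handling, and the 14 immediate early genes examined beside them (*Fos*, *Junb*, *Egr1* and others) were all above the limit, with log2 ratios from 0.38 to 0.96 and a median of 0.67. *Egr1*, a zinc finger factor induced by growth signals, was at 7589 in wild-type against 12022 in Npffr1-KO. The 8 macrophage genes examined had a median log2 ratio of 0.02, with 2 above the limit and 0 below it. The part of either list in the values of *Cebpb* and *Klf4* was not tested.

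*Pparg* had 3864 normalized counts in wild-type against 5098 in Npffr1-KO, a ratio of 1.32 (log2 0.40, counting interval 0.36 to 0.43), and 92.3% of the 15309 genes had a lower ratio. *Cebpa*, its partner in the core loop, had 12682 and 12629, a ratio of 0.996 (log2 -0.01, counting interval -0.03 to 0.01). The genes of the core pair therefore did not move by the same amount, and the level of *Pparg* relative to *Cebpa* per kilobase was 0.452 in wild-type and 0.598 in Npffr1-KO. Short genes had higher ratios than long ones in these data, with a median log2 ratio of 0.27 for genes of up to 836 bases and -0.14 for genes of at least 7427 bases. Measured against genes of like length, *Pparg* came to 0.31, just under the limit of 0.32, and *Cebpb* to 0.41, still past it.

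*Rxra*, which encodes the heterodimer partner of PPARγ, had 4611 normalized counts in wild-type against 4284 in Npffr1-KO (log2 -0.11, counting interval -0.14 to -0.07). The level of *Pparg* relative to *Rxra* per kilobase was 2.41 in wild-type and 3.42 in Npffr1-KO. Measured against genes of like length, the ratio of *Rxra* was -0.01 in log2, so its direction is not established.

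The commitment factors differed little between the genotypes, and both lay within the limit. *Ebf1*, which marks preadipocytes and is also a B cell factor, had 4568 normalized counts in wild-type against 3914 in Npffr1-KO (log2 -0.22, counting interval -0.26 to -0.19). Measured against genes of like length its log2 ratio was -0.11, and against the progenitor genes -0.12. *Zfp423*, a zinc finger factor that keeps cells in the white lineage, had 990 and 948 (log2 -0.06, counting interval -0.14 to 0.01), which is within counting error, and measured against genes of like length its log2 ratio was 0.0011. Stromal progenitor genes, in which both factors are used, had a median log2 ratio of -0.11 over 20 genes, 2 of them past the limit upwards and 3 downwards. Their lowest ratio was that of *Dlk1* (Pref-1, a preadipocyte surface protein), at 13526 normalized counts in wild-type against 7412 in Npffr1-KO (log2 -0.87). *Pdgfra*, the receptor that defines these progenitors, was at 1894 and 1467 (log2 -0.37). The 2 past the limit upwards were *Thy1*, at 3533 and 5377 (log2 0.61), and *F3*, at 405 and 572 (log2 0.50). Of the 20 genes, 8 lay above 0 and 12 below. The 8 B and T lymphocyte genes examined were on the whole higher (median log2 0.55, 6 above the limit, summed values 12618 and 17286). Their part in the values of *Ebf1* and *Thy1* was not tested.

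*Klf15*, the late factor, had 420 normalized counts in wild-type against 511 in Npffr1-KO, a ratio of 1.22 that lies just inside the limit (log2 0.28, counting interval 0.17 to 0.39). The nearest factor outside that limit was *Pparg*, at 1.32. In a bulk tissue, a lower value can come from fewer cells of a type or from less RNA per cell, and these cannot be told apart.

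**Figure D2:**
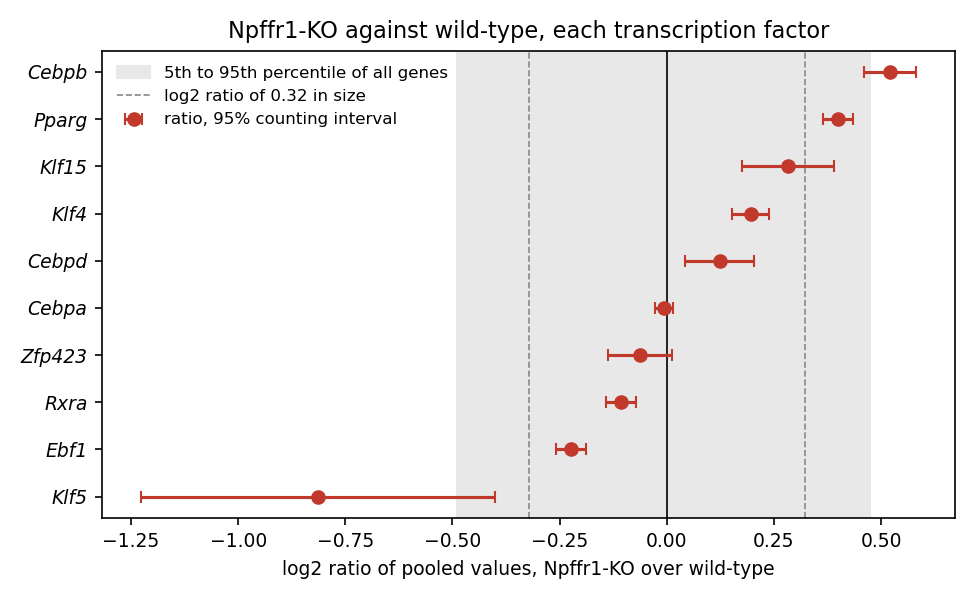
Log2 ratio of the pooled Npffr1-KO value over the wild-type value for each factor (points) with 95% intervals that cover counting error only, and dashed lines at -0.32 and 0.32. The grey band spans the 5th to 95th percentile of the 15309 genes (-0.49 to 0.48), and *Cebpb* (0.52) lies above it, *Klf5* (-0.81) below it and the other 8 within it.

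*Klf5* was the 1 factor low enough for its reads in each library to be recovered from the deposited values. KLF5 acts between the early C/EBP proteins and *Pparg*, and it is also abundant in epithelia. The wild-type libraries held 43, 56 and 38 reads and the Npffr1-KO libraries 25, 20 and 23, with the libraries of each genotype in no set order. After division by the size factors these were 41.5, 54.8 and 37.7 in wild-type and 24.1, 20.2 and 25.1 in Npffr1-KO. All 3 Npffr1-KO libraries lay below all 3 wild-type libraries, as was the case for 10.7% of the 2740 low genes with recovered reads.

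The mean of *Klf5* was 44.7 ± 8.98 normalized reads in wild-type (SD, n = 3) and 23.1 ± 2.60 in Npffr1-KO (SD, n = 3), which is 51.7% of wild-type. By limma across the 2740 low genes the log2 change was -0.91 (SE 0.32), with an unadjusted p of 0.0115 and a Benjamini-Hochberg adjusted p of 0.27, so *Klf5* did not pass the test at an adjusted p of 0.05. None of the 2740 genes passed it (0%), while 336 had an unadjusted p under 0.05. Without the library rich in *Ckm* the log2 change of *Klf5* was -0.94 with a limma adjusted p of 0.36.

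The epithelial genes went both ways. Over the 7 epithelial genes examined, the summed normalized reads were 212 to 273 in the wild-type libraries and 160 to 202 in the Npffr1-KO libraries. These ranges did not overlap, and of the 2740 single low genes 10.7% lay without overlap in that direction. The sums were carried mostly by *Cdh1* and *Trp63* (pooled log2 -0.72 and -0.46). *Krt8* (-0.30) and *Krt18* (-0.07) were also below 0, while *Epcam* (0.34), *Krt14* (0.25) and *Krt5* (0.05) were above it. The basal keratins were near 0, with *Krt5* at 0 reads in 4 of 6 libraries and *Krt14* at 0 in 2. *Cdh1*, the epithelial cadherin, was at 63.7, 113 and 117 normalized reads in wild-type and 63.6, 54.5 and 50.2 in Npffr1-KO, whereas *Epcam*, another epithelial surface protein, was at 24.1, 35.2 and 24.8 against 47.2, 33.3 and 30.6. Neither passed the test (limma adjusted p of 0.27 and 0.68). Their part in the value of *Klf5* was not tested.

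**Figure D3:**
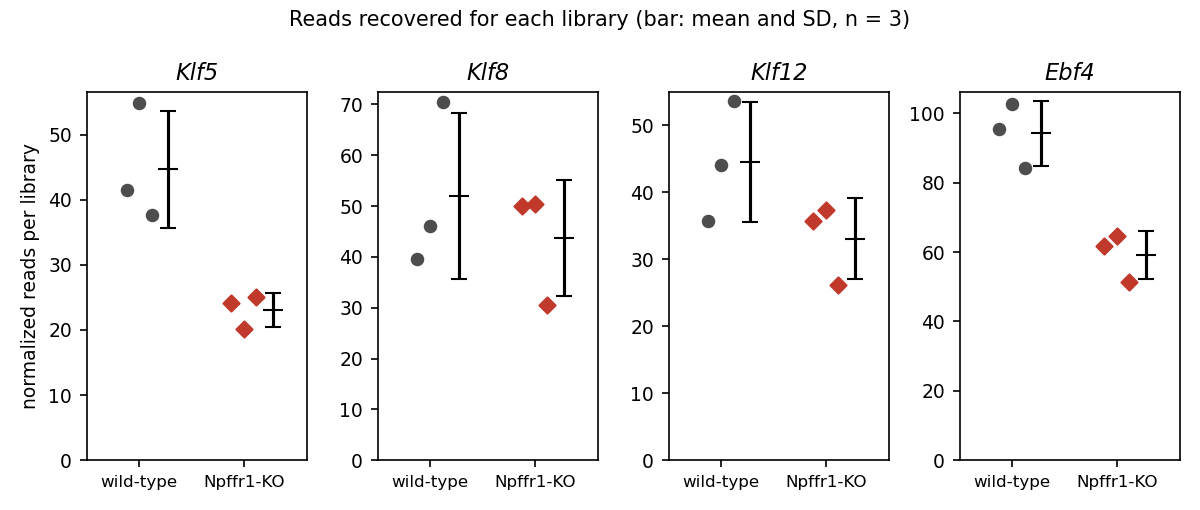
Normalized reads per library (1 point each, linear axis from 0) of *Klf5* and of 3 relatives of the factors that were low enough to be recovered, with the mean and SD (n = 3) beside each genotype. The genotypes do not overlap for *Klf5* and *Ebf4* and overlap for *Klf8* and *Klf12*, and none of the 4 passed the limma test. All Npffr1-KO libraries lay below all wild-type ones for 10.7% of the 2740 low genes.

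The relatives of each factor place it within its family. Among the C/EBP genes, *Cebpa* accounted for 76.1% of the summed level per kilobase of *Cebpa*, *Cebpb*, *Cebpd*, *Cebpe* and *Cebpg* in wild-type and 71.8% in Npffr1-KO, while the share of *Cebpb* was 12.8% and 17.4%. *Cebpg*, a family member without an activation domain, had 1680 and 1628 normalized counts (log2 -0.05). *Ddit3* (CHOP), a stress-induced member that blocks the others, had 318 and 404 (log2 0.35), and *Cebpz* 996 and 1215 (log2 0.29). *Cebpe*, a granulocyte factor, had 3, 2 and 5 reads in wild-type and 1, 4 and 1 in Npffr1-KO. Of the 6 family genes above the minimum, 2 were above the limit in Npffr1-KO (*Cebpb* and *Ddit3*) and 0 below it. Over the 15309 genes the shares were 12.0% and 11.6%. When measured against genes of like length, *Ddit3* came to 0.14, within the limit, and *Cebpz* to 0.35, past it.

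In the PPAR and RXR family the largest ratio was not that of *Pparg*. *Ppara*, which drives fatty acid oxidation, had 238 normalized counts in wild-type against 651 in Npffr1-KO (log2 1.45), while *Ppard* had 1530 and 1414 (log2 -0.11). *Pparg* still had 66.5 times the level of *Ppara* per kilobase in wild-type and 32.1 times in Npffr1-KO. Among the RXR genes, *Rxra* held 52.4% of the summed level per kilobase in wild-type and 47.6% in Npffr1-KO. *Rxrg* had 493 and 646 normalized counts (log2 0.39) and *Rxrb* 1344 and 1383 (log2 0.04). Thus 3 of the 6 genes, *Ppara*, *Pparg* and *Rxrg*, were above the limit and 0 below it, against 12.0% and 11.6% of the 15309 genes. This count depends on gene length. Against genes of like length only *Ppara* (1.58) stayed above the limit, with *Pparg* at 0.31 and *Rxrg* at 0.27.

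The brown and beige fat genes had a median log2 ratio of 0.83 over 11 genes, 6 of them above the limit and 0 below it. Those within it were *Dio2* (log2 0.29), *Tnfrsf9* (0.24), *Tbx1* (0.09), *Prdm16* (-0.08) and *Tmem26* (-0.10). The summed values of all 12 genes of that list, 1 of them under the minimum mean, were 2760 in wild-type and 6596 in Npffr1-KO. *Ucp1*, the uncoupling protein of heat-producing fat, was at 438 and 1287 (log2 1.55) and *Cidea*, a lipid droplet protein of the same cells, at 304 and 1427 (log2 2.23). The part of these cells or of the library rich in *Ckm* in the values of *Ppara* and *Pparg* was not tested.

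Of the 17 KLF genes, 15 reached the minimum mean of 10 normalized counts, with a median log2 ratio of -0.15. Among these, 0 were above the limit and 4 below it, against 12.0% and 11.6% of the 15309 genes. The 4 were *Klf5*, *Klf11* (920 and 644 normalized counts, log2 -0.52), *Klf10* (2197 and 1676, log2 -0.39) and *Klf12* (log2 -0.37). *Klf4* and *Klf15* lay at the other end with *Klf6* (4357 and 5277, log2 0.28), *Klf16* (456 and 537, log2 0.24) and *Klf2* (4514 and 5159, log2 0.19). When measured against genes of like length, *Klf6* came to 0.34, past the limit, and *Klf12* to -0.26, within it. *Klf2*, which is strongly expressed in endothelium and restrains adipogenesis, was the most abundant of the family, with 33.8% of its summed level per kilobase in wild-type and 36.6% in Npffr1-KO.

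*Klf4* came after *Klf2* and *Klf6* with 11.8% and 12.8%, *Klf15* had 2.49% and 2.87%, and *Klf5* had 0.340% and 0.183%. *Klf13* had 3504 and 3719 normalized counts (log2 0.09), and *Klf14* 338 and 311 (log2 -0.12). The values of *Klf9*, a factor induced by glucocorticoids and in early adipogenesis, were 1116 and 943 (log2 -0.24). *Klf3* (1019 and 873, log2 -0.22) and *Klf7* (233 and 210, log2 -0.15), both restraining factors, were slightly lower. *Klf8* overlapped between the genotypes, with 39.6, 46.0 and 70.5 normalized reads in wild-type and 50.1, 50.5 and 30.6 in Npffr1-KO. *Klf12* did too, with 35.7, 44.1 and 53.6 against 35.7, 37.3 and 26.2 (limma adjusted p of 0.81 and 0.64). *Klf1*, an erythroid factor, had 7, 7 and 3 reads in wild-type and 7, 16 and 9 in Npffr1-KO, and *Klf17* had 2 reads in 1 wild-type library.

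*Ebf1* held 57.8% of the summed level per kilobase of the 4 EBF genes in wild-type and 57.9% in Npffr1-KO. *Ebf3* had 2405 and 1928 normalized counts (log2 -0.319, just within the limit, which is 0.322 before rounding). *Ebf2*, a factor of brown and beige precursors, had 674 and 762 (log2 0.18). The level of *Ebf1* relative to *Ebf2* per kilobase was 7.22 in wild-type and 5.47 in Npffr1-KO. *Ebf4* was low enough for recovery, with 95.6, 103 and 84.4 normalized reads in wild-type and 61.7, 64.6 and 51.3 in Npffr1-KO. All 3 Npffr1-KO libraries lay below the wild-type ones, as for 10.7% of the 2740 low genes. Its log2 change by limma was -0.66 (SE 0.22, adjusted p of 0.24), which did not pass. *Zfp521*, a relative that restrains *Zfp423* and *Ebf1*, had 828 and 744 (log2 -0.15), and *Zfp467* 1427 and 1535 (log2 0.10). The level of *Zfp423* relative to *Zfp521* per kilobase was 1.66 in wild-type and 1.77 in Npffr1-KO. Of these 7 EBF and zinc finger genes, 0 were above the limit and 1 (*Ebf4*) below it, against 12.0% and 11.6% of the 15309 genes.

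**Figure D4:**
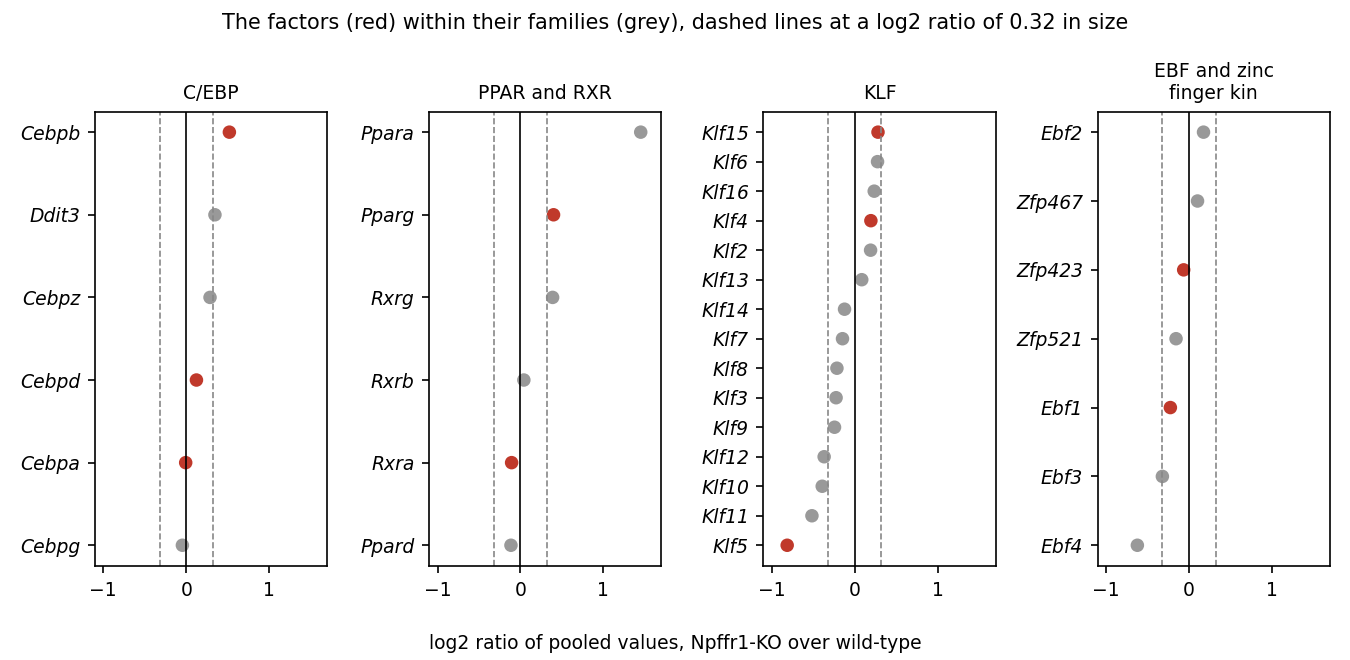
Log2 ratio of the pooled Npffr1-KO value over the wild-type value for every gene of the 4 families that reached a mean of 10 normalized counts (dashed lines at log2 ratios of -0.32 and 0.32), the 10 factors in red and their relatives in grey. *Ppara* (1.45) lies farthest to the right, *Klf5* (-0.81) farthest to the left, and *Cebpa*, *Zfp423* and *Rxra* lie near 0.

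A wider list of transcription factors that promote adipogenesis, *Pparg* among them, also lay on both sides of 0. Over 19 of them the median log2 ratio was 0.03, with 2 above the limit (*Egr2* and *Pparg* itself) and 2 below it. Each count is 10.5% of the list, near the 12.0% and 11.6% of the 15309 genes. *Srebf1*, the activator of lipid synthesis, had 6010 and 6796 normalized counts (log2 0.18). *Egr2*, which acts upstream of *Cebpb*, had 204 and 281 (log2 0.46). That ratio lies within the range of the 14 immediate early genes (0.38 to 0.96), whose part in the value of *Egr2* was not tested. *Zbtb16*, a glucocorticoid-induced zinc finger factor, had 628 and 281 (log2 -1.16) and the clock gene *Arntl* 487 and 382 (log2 -0.35). The 12 glucocorticoid-responsive genes examined, *Zbtb16* among them, had a median log2 ratio of -0.07, with 4 above the limit and 4 below it.

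Factors that restrain adipogenesis also went both ways, with a median log2 ratio of 0.08 over 25 genes. Of them 20% (5) were above the limit and 16% (4) below it, against 12.0% and 11.6% of the 15309 genes. The lowest ratio was that of *Foxc2*, at 165 and 105 (log2 -0.66). *Gata2* and *Gata3*, zinc finger factors of the preadipocyte that repress *Pparg*, went apart, with 774 and 561 normalized counts (log2 -0.46) for *Gata2* and 224 and 302 (log2 0.43) for *Gata3*. *Nr2f2*, an orphan receptor, was at 3332 and 2447 (log2 -0.45) and *Hes1*, a Notch target, at 962 and 1315 (log2 0.45). *Nr2f2* is also an endothelial gene, and the 8 endothelial genes examined had a median log2 ratio of -0.39, 5 of them below the limit and 0 above it, and summed values of 70852 and 55968. Their part in the values of *Nr2f2*, *Gata2* and *Klf2* was not tested, nor was that of the lymphocyte genes in the value of *Gata3*.

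The coregulators of PPARγ had a median log2 ratio of -0.05 over 18 genes, and 15 of them lay within the limit. *Ppargc1a* and *Ppargc1b*, the coactivators of mitochondrial genes, were higher, at 136 and 241 (log2 0.83) and at 201 and 374 (log2 0.90), and *Nrip1*, a corepressor of the same genes, was lower, at 315 and 197 (log2 -0.68). *Ncor1*, the nuclear receptor corepressor, was level at 6201 and 6234 (log2 0.01).

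Genes that the core factors switch on in the mature cell did not all follow *Pparg*. Over 30 adipocyte genes the median log2 ratio was -0.03, with 5 above the limit and 3 below it, and their summed values were 877298 in wild-type and 903025 in Npffr1-KO. Those higher were *Lep* (leptin, 4210 and 8703, log2 1.05), *G0s2* (an inhibitor of lipolysis, 3927 and 8039, log2 1.03), *Dgat2* and *Agpat2* (triglyceride synthesis, log2 0.58 and 0.50) and *Scd1* (fatty acid desaturation, log2 0.41). Those lower were *Insr* (the insulin receptor, log2 -0.41), *Aqp7* (a glycerol channel, log2 -0.40) and *Angptl4* (an inhibitor of lipoprotein lipase, log2 -0.40). *Fabp4* (log2 0.15), *Lpl* (lipoprotein lipase, 136814 and 146170, log2 0.10) and *Adipoq* (adiponectin, 37027 and 35360, log2 -0.07) lay near 0.

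**Figure D5:**
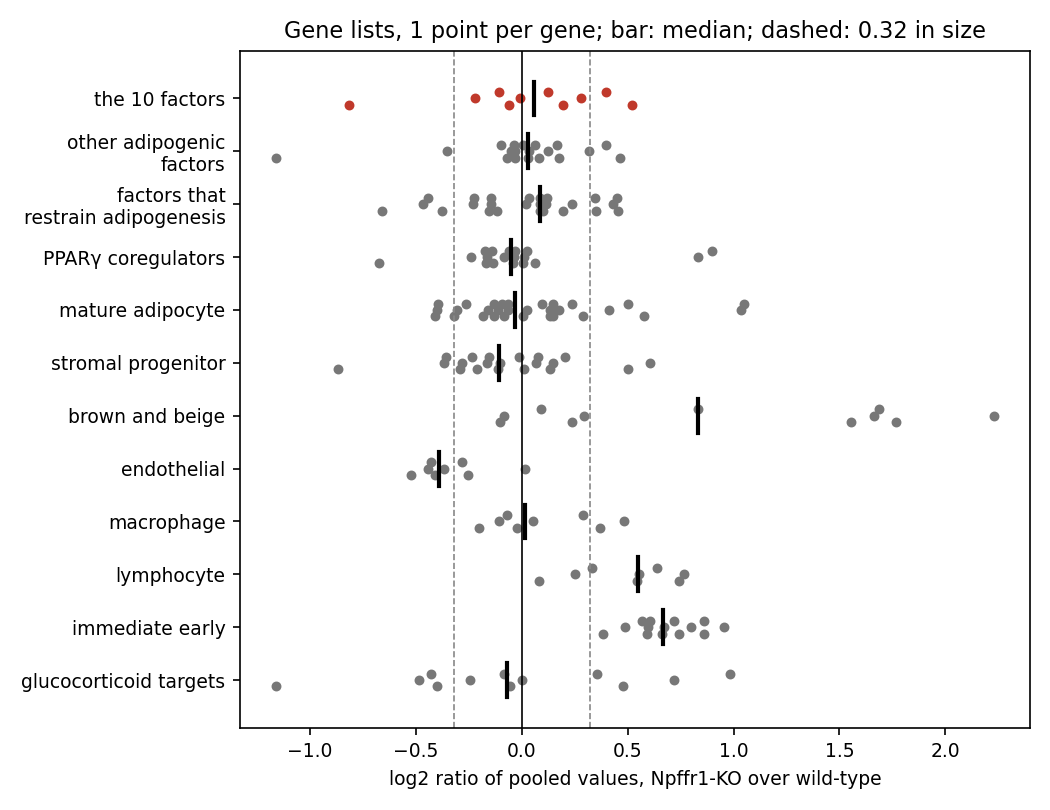
Log2 ratio of pooled values, Npffr1-KO over wild-type, for the 10 factors (red) and for each other gene list (grey), 1 point per gene that reached a mean of 10 normalized counts, a bar at the median and dashed lines at log2 ratios of -0.32 and 0.32. The 10 factors spread around 0 (median 0.06). The medians of the immediate early (0.67), brown and beige (0.83) and lymphocyte (0.55) lists lie to the right. That of the endothelial list (-0.39) lies to the left.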

How the data were processed

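RNA from inguinal adipose tissue of 3 wild-type and 3 Npffr1-KO samples at postnatal day 6 was sequenced, and the labels gave each sample's group. The deposited table of all genes gives, for each gene, a signal (a read count normalized for library size by the authors) as 1 value per genotype, the gene length in bases, and the authors' fold changes and p-values, which were not used. A second table holds a subset of these genes and was not used. Per the submitters' processing notes, Bowtie2, RSEM and DESeq2 were used, while their roles and versions, like the genome build and annotation, were not stated in the labels or the paper. The paper lists the dataset and refers to earlier work for its methods. There were 0 columns of per-sample values.

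The pooled values are drawn together for genes with few or uneven reads, so their log2 ratio can understate a change. For such genes a printed level can also differ from that of the libraries of its genotype. Ratios were computed from the deposited values with no pseudocount over genes whose mean reached 10 normalized counts, and levels of different genes were compared per kilobase of listed length. Ratios of 3 epithelial genes under that minimum were also printed. Intervals (95%) cover counting error only, and reads without molecular identifiers are not independent molecules.

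Genes with a single read in all (585 genes) gave the size factor and the genotype of each library. Whole reads were then sought for 2752 genes (mean 10 to 80), and 2740 (99.6%) had exactly 1 combination that matched the mean value to within 1e-13 normalized counts. For 2176 of the 2177 with a pooled log2 ratio over 0.1 in size, the reads gave the same direction. The libraries could not be tied to sample numbers. These genes were tested with limma 3.58.1 (R 4.3.3) on log2(normalized reads + 1) with a mean-variance trend and Benjamini-Hochberg adjustment. A count test was planned for these reads. It was replaced by limma because of the unit of the deposited values, although the recovered reads themselves are whole counts. The search (Python 3.11.15, numba 0.67.0) and the test were checked on simulated data. Nothing in the labels says that the samples are separate animals, so p-values measure the spread between these samples.

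The 10 factors and all gene lists were chosen with earlier results of these data known, so no list received a test. Named were all 10 factors, their family members and *Npffr1*. For the other lists, names were drawn from the 4 genes with the highest mean and up to 6 past a log2 ratio of 0.32 in size. Not all of these were printed, and none for the endothelial, lymphocyte and macrophage lists. All epithelial genes and the brown and beige genes within the limit were also named. *Adipoq*, *Egr1*, *Cdh1*, *Krt5*, *Krt14*, *Epcam*, *Ckm* and *Pdgfra* were named as markers. Alternatives were other pseudocounts, centrings, thresholds, minimum means and lengths, and leaving out each library where its reads were known.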

Additional observations from a re-analysis of the deposited data

How the results depend on the processing

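The ratios of the 10 factors rest on 1 pooled value per genotype, so their spread between samples is unknown for all but *Klf5*. No paired analysis was possible because the pooled columns carry no replicate numbers and the recovered libraries were not tied to sample numbers. Leaving out a library was not possible for the 9 factors with higher values. Reads limit *Klf5* and its low relatives, at 20 to 56 reads a library for *Klf5*.

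Centring on the progenitor list moved the median log2 ratio of the 10 factors from 0.06 to 0.16, and the other centrings and pseudocounts gave 0.03 to 0.09. The number of factors above the limit was 2, 1 when centred on gene length class (*Pparg* left the count), 3 when centred on the progenitor list (*Klf15* joined it, at 0.39), 4 at 1.1-fold and 0 at 1.5-fold. The number below it was 1, and 2 at 1.1-fold. Of the 10 factors, 4 kept their rank by Npffr1-KO value per kilobase, 5 by value not divided by length and 7 by the longest GENCODE transcript. Of 60 alternative values for single factors, 14 moved by more than counting error. Centring on gene length class brought *Ebf1* from -0.22 to -0.11, and centring on the progenitor list brought it to -0.12 and *Zfp423* from -0.06 to 0.04, and on the mature adipocyte list *Cebpa* from -0.01 to 0.02. The cause was not tested.

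For the low genes, limma called 0 of 2740, 3 with a pseudocount of 4, and 0 to 3 when each library was left out in turn. The limma log2 change of *Klf5* was -1.02 to -0.76 with a library left out (adjusted p of 0.30 to 0.63) and -0.92 to -0.83 under the other settings, never past the threshold. The alternatives with pseudocounts 0.5 and 4, with a mean of 20 to 80, and with GENCODE lengths were chosen after seeing the data.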
